A study of Drosophila melanogaster with 9 samples.

Results

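Glutathione S-transferases (GSTs) are enzymes that join the tripeptide glutathione to reactive or foreign compounds, and several of them also reduce peroxides or disulfides. Insects carry them in classes named by letters. The D (delta) and E (epsilon) classes are expanded in insects and are known for breaking down insecticides and the products of oxidative damage, while the O (omega), S (sigma), T (theta) and Z (zeta) classes have relatives in vertebrates. In flies, part of this family is switched on by CncC, the counterpart of the vertebrate factor Nrf2, when its inhibitor Keap1 releases it. The family was taken as every gene whose platform symbol begins with Gst and a capital letter, which gave 33 of 11573 named genes: 12 of class E, 11 of class D, 4 of class T, 3 of class O, 2 of class Z and 1 of class S. All 33 carry the same symbol in the RefSeq gene table. GstE8 and GstE14 were not analysed here, and se, an omega-class gene named for the sepia eye colour, falls outside the rule and is described with the neighbouring pathways.

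Levels were measured in Drosophila melanogaster S2 cells, a hemocyte-like line of embryonic origin, on 9 single-channel arrays. The groups were 3 arrays of cells given double-stranded RNA (dsRNA) against NELF-B and NELF-E, 3 arrays of cells given dsRNA against bacterial beta-galactosidase (LacZ), a gene that fly cells lack, and 3 arrays of untreated cells, given no dsRNA. Both dsRNA treatments lasted 72 h, and all cells shared 1 line and a medium with 10% serum. NELF is the negative elongation factor, a complex that holds RNA polymerase II just downstream of promoters. The comparison of NELF dsRNA with LacZ dsRNA asks which transcripts depend on NELF, and that of LacZ dsRNA with untreated cells shows what dsRNA alone does. The labels do not say whether the 3 arrays of a group hold separate cultures, and the p-values below therefore rest on the scatter among these arrays alone, part or all of which could be technical.

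The targeted genes were low in the cells labelled as depleted. NELF-B read 4.76, 4.83 and 4.54 (log2 signal) on the NELF dsRNA arrays, against 7.41, 7.47 and 7.63 on the LacZ dsRNA arrays and 7.41, 7.17 and 7.16 on the untreated arrays. Nelf-E read 2.52, 3.65 and 3.82 after NELF dsRNA, against 7.98, 7.81 and 7.48 after LacZ dsRNA and 7.83, 7.93 and 7.85 in untreated cells. Of 10 hemocyte markers 8 lay above the detection limit of 3.77 in every group, a limit set at the 95th percentile of the control probe sets, and NimC1 lay below it on every array. The summed signal of these markers spanned 11.4 to 11.6 after NELF dsRNA, 11.4 to 11.5 after LacZ dsRNA and 11.3 to 11.4 in untreated cells, although eater fell (log2 change -2.66) and Pxn rose (log2 change 0.88) against LacZ dsRNA. Of the markers of other cell types, 0 of 4 fat body, 0 of 1 muscle, 1 of 3 neuron (elav) and 1 of 3 germline markers (aub) lay above the limit in every group, and none of those tested passed in any comparison. Of all arrays, NELF dsRNA array 3 (13854) and LacZ dsRNA array 1 (13935) had the fewest measured probe sets, against up to 14196 on the others.

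Depletion of NELF moved the GST family in both directions, with more rises than falls. Against LacZ dsRNA, 10 of 30 tested GST genes passed the limma test (adjusted p under 0.05 over all tested probe sets), 7 higher (GstD5, GstD1, GstE11, GstE6, GstT1, GstE12 and GstT4) and 3 lower (GstE2, GstO3 and GstE13). Over all 12975 tested probe sets 4.56% passed, 1.85% higher and 2.71% lower. Those shares for the GST genes were 33.3%, 23.3% and 10.0%. All 10 lie among the 21 GST genes whose mean exceeded the detection limit in every group. Of these 21 genes 47.6% passed, against 7.67% of all tested probe sets with a mean above that limit (3.11% higher and 4.57% lower). The median log2 change was 0.19 over the 21 genes and 0.00 over all 7599 such probe sets, and over all 30 tested GST genes it was -0.10, against 0.01 over all tested probe sets. Within its own group LacZ dsRNA array 1 held the highest value for 17 of the 21 genes, and untreated array 2 for 15 of them. The same share over all probe sets was not counted. Because these arrays read whole cultures, fewer cells of a kind and less RNA per cell cannot be told apart. Without the variance trend, by which the test lets the expected spread follow the signal, 5 GST genes passed (4 higher and 1 lower). Without NELF dsRNA array 2 there were 6 (5 higher and 1 lower), and without NELF dsRNA array 1 or LacZ dsRNA array 1 there were 8 (7 higher and 1 lower).

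**Figure D1:**
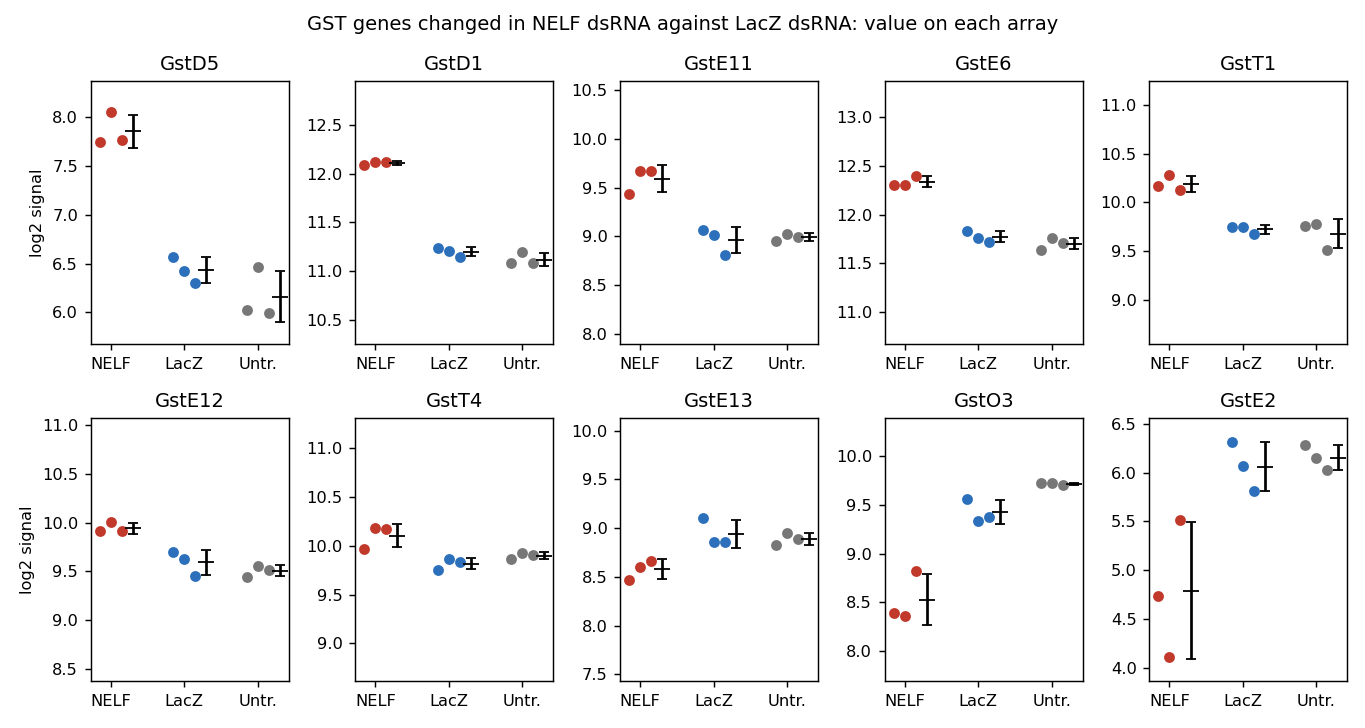
Log2 signal on each array for the 10 GST genes that passed in NELF dsRNA against LacZ dsRNA, ordered by log2 change. Points are arrays 1 to 3 of each group (NELF dsRNA, LacZ dsRNA and untreated, abbreviated NELF, LacZ and Untr.), bars are the mean ± SD (n = 3), and every panel spans the same height on the log2 axis. In each panel the NELF dsRNA points lie clear of the LacZ dsRNA points.

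The D class held the greatest rises. GstD5 read 7.75, 8.05 and 7.77 on the NELF dsRNA arrays, against 6.57, 6.43 and 6.31 on the LacZ dsRNA arrays and 6.03, 6.46 and 5.99 on the untreated arrays. Every NELF dsRNA array lay more than a log2 unit above every control array. It rose 2.68-fold against LacZ dsRNA (log2 change 1.42, SE 0.15, limma adjusted p = 2.77e-05) and 3.24-fold against untreated cells (log2 change 1.70, SE 0.15, limma adjusted p = 3.7e-06). GstD1 encodes the enzyme known for dehydrochlorination of DDT, and its promoter is widely used as a reporter of CncC activity. GstD1 read 12.09, 12.12 and 12.12 after NELF dsRNA, against 11.24, 11.21 and 11.15 after LacZ dsRNA and 11.08, 11.19 and 11.08 in untreated cells. The 3 NELF dsRNA values differed by far less than the step between the groups. GstD1 rose 1.88-fold against LacZ dsRNA (log2 change 0.91, SE 0.06, limma adjusted p = 8.93e-08) and 1.99-fold against untreated cells (log2 change 0.99, SE 0.06, limma adjusted p = 3.42e-08).

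GstD3 and GstD9, the other D-class genes above the detection limit in every group, did not pass. GstD3 read 8.85, 8.86 and 8.93 after NELF dsRNA, against 9.21, 8.92 and 8.84 after LacZ dsRNA and 9.13, 9.12 and 8.78 in untreated cells, and the groups overlapped. Its log2 change was -0.11 against LacZ dsRNA (95% interval -0.34 to 0.12) and -0.13 against untreated cells. GstD9 read 8.90, 8.91 and 9.41 after NELF dsRNA, against 9.26, 9.12 and 9.18 after LacZ dsRNA and 9.50, 9.14 and 9.48 in untreated cells. NELF dsRNA array 3 stood above the other two arrays of its group. The log2 change of GstD9 was -0.11 against LacZ dsRNA (95% interval -0.39 to 0.16) and -0.30 against untreated cells (adjusted p = 0.22 by limma), and without NELF dsRNA array 3 the change against untreated cells was -0.47 and passed (adjusted p = 0.017).

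The E class split. GstE6, a glutathione-conjugating enzyme of this class, read 12.31, 12.31 and 12.40 after NELF dsRNA, against 11.83, 11.77 and 11.72 after LacZ dsRNA and 11.64, 11.76 and 11.71 in untreated cells. It rose 1.48-fold against LacZ dsRNA (log2 change 0.56, SE 0.06, limma adjusted p = 1.61e-05). GstE11 read 9.43, 9.67 and 9.67 after NELF dsRNA, against 9.06, 9.01 and 8.81 after LacZ dsRNA and 8.95, 9.03 and 8.997 in untreated cells. All NELF dsRNA arrays of both genes stood above all control arrays, and GstE11 rose 1.55-fold (log2 change 0.63, SE 0.09, limma adjusted p = 0.000268).

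GstE12 read 9.91, 10.01 and 9.91 after NELF dsRNA, against 9.70, 9.63 and 9.45 after LacZ dsRNA and 9.45, 9.56 and 9.52 in untreated cells. It rose 1.27-fold (log2 change 0.35, SE 0.07, limma adjusted p = 0.0103). Leaving out NELF dsRNA array 2 brought its adjusted p to 0.057, and removing the variance trend brought it to 0.14. Against untreated cells the log2 changes were 0.63 for GstE6, 0.60 for GstE11 and 0.44 for GstE12, and each of them passed the limma test, GstE12 not without the variance trend (adjusted p = 0.057).

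GstE2 fell. It read 4.73, 4.11 and 5.52 after NELF dsRNA, against 6.31, 6.07 and 5.81 after LacZ dsRNA and 6.28, 6.15 and 6.03 in untreated cells. The NELF dsRNA arrays were all lower, but they were spread widely (SD 0.70, against 0.25 after LacZ dsRNA). The log2 change was -1.27 (SE 0.29, limma adjusted p = 0.0175), a 2.42-fold decrease, and -1.37 against untreated cells (limma adjusted p = 0.00933). The call against untreated cells was lost under 1 of 18 alternatives, without the variance trend (limma adjusted p = 0.10). The call against LacZ dsRNA was lost, with adjusted p between 0.054 and 0.069 by limma, without NELF dsRNA array 1, NELF dsRNA array 2, LacZ dsRNA array 1 or LacZ dsRNA array 2, and without the variance trend (0.15). The log2 change ranged from -1.64 to -0.94 over all alternatives.

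GstE13 also fell, by a smaller step. It read 8.46, 8.60 and 8.67 after NELF dsRNA, against 9.10, 8.86 and 8.86 after LacZ dsRNA and 8.83, 8.95 and 8.89 in untreated cells. The NELF dsRNA arrays lay below all control arrays, and the fall was 1.29-fold against LacZ dsRNA (log2 change -0.36, SE 0.09, limma adjusted p = 0.0246) and 1.24-fold against untreated cells (log2 change -0.31, limma adjusted p = 0.0474). Against LacZ dsRNA the call was lost without NELF dsRNA array 1 (adjusted p = 0.11), NELF dsRNA array 2 (adjusted p = 0.063) or LacZ dsRNA array 1 (adjusted p = 0.060). It was also lost without the variance trend (adjusted p = 0.18), with the 6 arrays compared (adjusted p = 0.056) and with the replicate block (adjusted p = 0.057). Against untreated cells it was lost under 11 of 18 alternatives, those without any array except LacZ dsRNA array 1 or array 3 included.

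The remaining E-class genes above the limit in every group, GstE3, GstE7 and GstE9, did not pass. GstE3 read 9.37, 9.23 and 9.33 after NELF dsRNA, against 9.59, 9.14 and 9.07 after LacZ dsRNA and 9.29, 9.36 and 9.15 in untreated cells. GstE7 read 8.70, 8.77 and 8.60 after NELF dsRNA, against 8.85, 8.79 and 8.69 after LacZ dsRNA and 8.67, 8.55 and 8.59 in untreated cells. In both genes the NELF dsRNA arrays overlapped each control group, with log2 changes of 0.04 for GstE3 (95% interval -0.20 to 0.28) and -0.09 for GstE7 (95% interval -0.26 to 0.08) against LacZ dsRNA. GstE9 read 7.84, 8.52 and 8.31 after NELF dsRNA, against 8.16, 7.80 and 7.91 after LacZ dsRNA and 7.63, 8.01 and 7.92 in untreated cells, a log2 change of 0.27 (95% interval -0.07 to 0.60) against LacZ dsRNA. The 2 probe sets of GstE9 differed in sign there, with -0.34 (SE 0.26) on the dimmer one, and neither passed. Against untreated cells the brighter one of GstE9 changed by 0.37 and passed only without NELF dsRNA array 1 (adjusted p = 0.032).

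**Figure D2:**
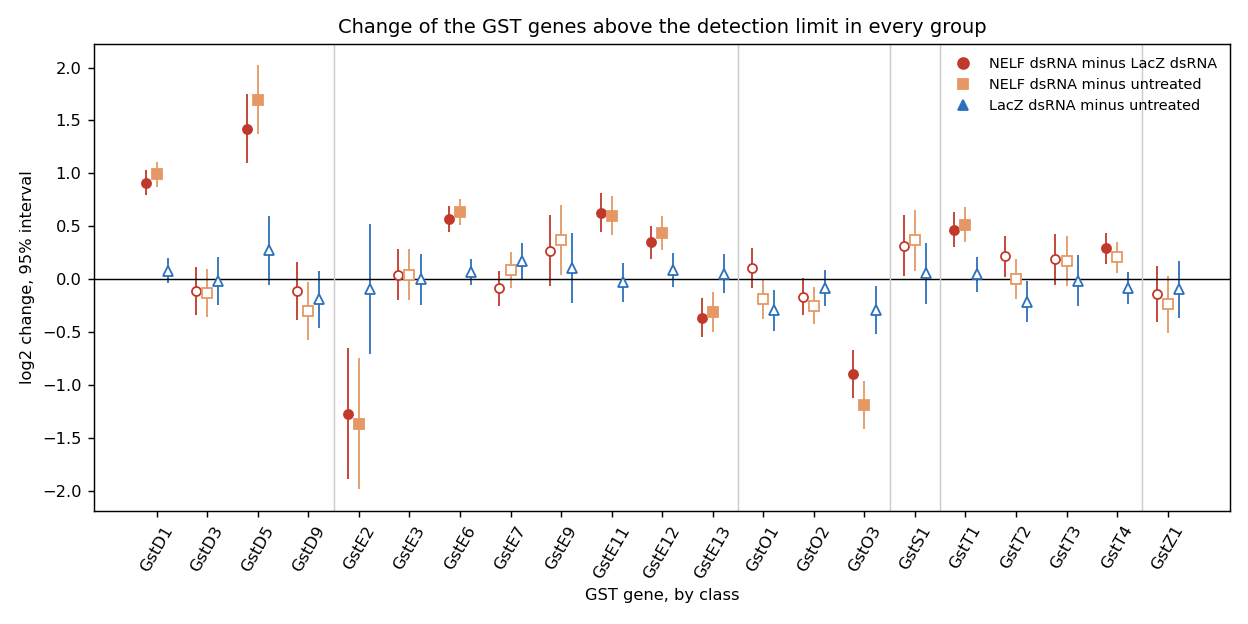
Log2 change (vertical axis) of the 21 GST genes above the detection limit in every group, by class, in NELF dsRNA minus LacZ dsRNA (circles), NELF dsRNA minus untreated (squares) and LacZ dsRNA minus untreated (triangles). Bars are 95% intervals not adjusted for the number of genes tested, and filled symbols passed after adjustment. GstD5 and GstD1 stand highest and GstE2 and GstO3 lowest for NELF dsRNA, and no triangle is filled.

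Among the omega genes, GstO3, of a class known for reducing mixed disulfides of glutathione, fell. It read 8.39, 8.36 and 8.82 after NELF dsRNA, against 9.56, 9.34 and 9.37 after LacZ dsRNA and 9.72, 9.72 and 9.70 in untreated cells. The NELF dsRNA arrays were lowest, the LacZ dsRNA arrays intermediate and the untreated arrays highest, with no overlap between any of them. The fall was 1.86-fold against LacZ dsRNA (log2 change -0.90, SE 0.11, limma adjusted p = 7.38e-05), and it was 2.28-fold against untreated cells (log2 change -1.19, SE 0.11, limma adjusted p = 3.7e-06). The step of -0.29 (SE 0.11) in LacZ dsRNA against untreated cells did not pass (limma adjusted p = 0.35).

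GstO1 read 8.12, 8.29 and 8.21 after NELF dsRNA, against 8.13, 8.16 and 8.02 after LacZ dsRNA and 8.34, 8.53 and 8.32 in untreated cells. Its log2 change was 0.11 against LacZ dsRNA (95% interval -0.09 to 0.30) and -0.19 against untreated cells. GstO2 read 9.23, 9.19 and 9.37 after NELF dsRNA, against 9.57, 9.44 and 9.28 after LacZ dsRNA and 9.56, 9.44 and 9.55 in untreated cells. Its log2 change of -0.25 against untreated cells did not pass (adjusted p = 0.094 by limma) but did without LacZ dsRNA array 1 (adjusted p = 0.044) and in a fit of those 6 arrays alone (adjusted p = 0.043). Its other probe set, dimmer, changed by -0.24 (SE 0.20) there and by 0.03 (SE 0.20) against LacZ dsRNA.

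The 4 theta genes all had positive changes against LacZ dsRNA, and 2 of them passed. GstT1 read 10.17, 10.28 and 10.13 after NELF dsRNA, against 9.75, 9.75 and 9.67 after LacZ dsRNA and 9.75, 9.77 and 9.51 in untreated cells. It rose 1.38-fold against LacZ dsRNA (log2 change 0.47, SE 0.08, limma adjusted p = 0.00153) and 1.43-fold against untreated cells (limma adjusted p = 0.00057). Its call against LacZ dsRNA was lost without the variance trend (adjusted p = 0.079). GstT4 read 9.97, 10.18 and 10.17 after NELF dsRNA, against 9.75, 9.86 and 9.84 after LacZ dsRNA and 9.86, 9.93 and 9.91 in untreated cells. It rose 1.22-fold against LacZ dsRNA (log2 change 0.29, SE 0.07, limma adjusted p = 0.0246). That call was lost under 5 of 19 alternatives. Among them were those without NELF dsRNA array 2 (adjusted p = 0.12) or array 3 (adjusted p = 0.10). The others included no variance trend (adjusted p = 0.20) and a fit of the 6 arrays compared (adjusted p = 0.062). Against untreated cells the log2 change of GstT4 was 0.21 and did not pass (limma adjusted p = 0.107). It did without NELF dsRNA array 1 (adjusted p = 0.035).

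GstT2 and GstT3 did not pass. GstT2 read 8.71, 8.72 and 8.87 after NELF dsRNA, against 8.64, 8.65 and 8.37 after LacZ dsRNA and 8.84, 8.71 and 8.75 in untreated cells. The log2 change of GstT2 was 0.22 against LacZ dsRNA (95% interval 0.02 to 0.41, limma adjusted p = 0.262) and 0.00 against untreated cells. GstT3 read 7.56, 7.67 and 7.76 after NELF dsRNA, against 7.63, 7.42 and 7.37 after LacZ dsRNA and 7.34, 7.62 and 7.51 in untreated cells, a log2 change of 0.19 against LacZ dsRNA.

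The single sigma gene and the brighter zeta gene did not pass either. GstS1, whose enzyme conjugates products of lipid peroxidation, read 6.96, 6.91 and 6.75 after NELF dsRNA, against 6.65, 6.61 and 6.42 after LacZ dsRNA and 6.45, 6.63 and 6.43 in untreated cells. Its NELF dsRNA arrays stood above all control arrays, with log2 changes of 0.31 against LacZ dsRNA (95% interval 0.03 to 0.60, limma adjusted p = 0.279) and 0.37 against untreated cells (limma adjusted p = 0.146). GstZ1, of the class that acts as maleylacetoacetate isomerase in tyrosine breakdown, read 7.46, 7.40 and 7.63 after NELF dsRNA, against 7.66, 7.88 and 7.38 after LacZ dsRNA and 7.75, 7.83 and 7.62 in untreated cells. Its log2 change was -0.14 against LacZ dsRNA (95% interval -0.41 to 0.13).

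The other 12 GST genes were not above the detection limit in every group, and most of their measured values lay below it. They were GstD2, GstD4, GstD6, GstD7, GstD8, GstD10, GstD11, GstE1, GstE4, GstE5, GstE10 and GstZ2. Of their 108 values 75 were measured and 19 exceeded the limit, and the measured ones spanned -0.66 to 4.93. GstD7 had 1 measured value and GstE1 had 1. None of the 9 that could be tested against LacZ dsRNA passed, and their fitted changes, between -2.04 and 0.58, are of values mostly below the limit. Among the 8 with a value on all NELF dsRNA arrays, array 3 held the highest in 7. That array also had the fewest measured probe sets of the 9, and its part in these values was not tested.

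GstE10 was the dim gene nearest to a call. It read 1.34, 1.29 and 4.06 after NELF dsRNA, against 4.15, 4.16 and 4.50 after LacZ dsRNA, and 4.77 on the only untreated array that measured it. The LacZ dsRNA arrays all exceeded the limit, and of the NELF dsRNA arrays array 3 alone did. The log2 change of -2.04 (SE 0.71) did not pass (limma adjusted p = 0.16). Without NELF dsRNA array 3 it was -2.96 and passed (limma adjusted p = 0.0087). It was -3.02 (limma adjusted p = 0.023) without that array and LacZ dsRNA array 1.

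**Figure D3:**
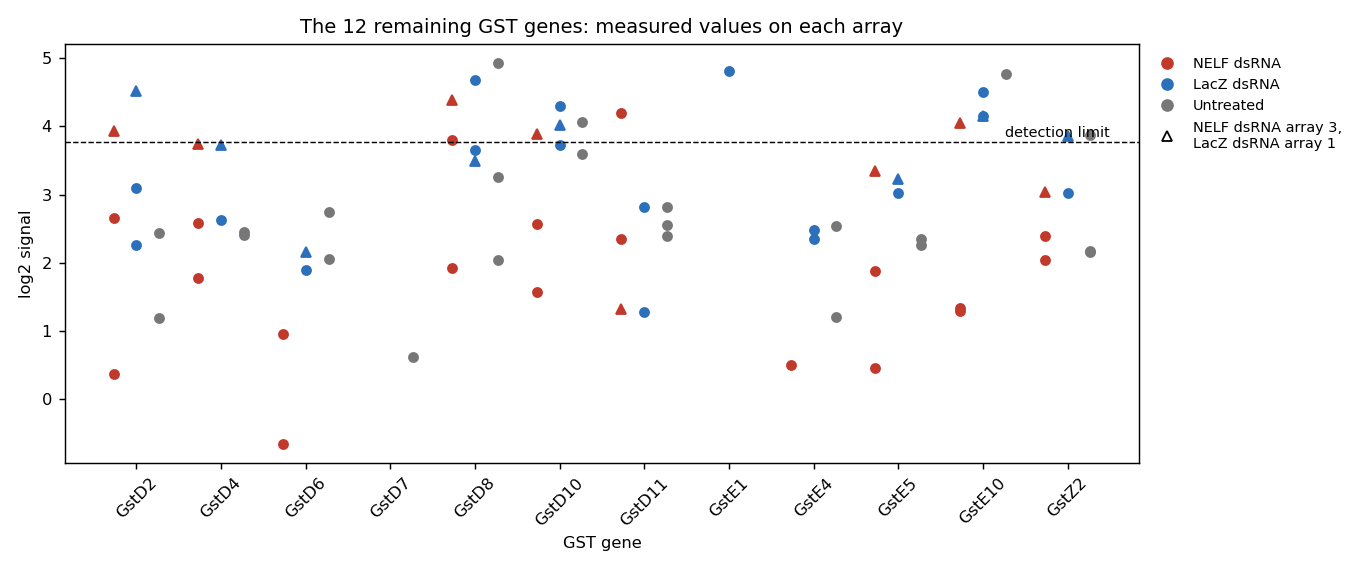
Log2 signal on each array for the 12 GST genes that were not above the detection limit (dashed line, 3.77) in every group, by group, with missing values not drawn. Triangles mark NELF dsRNA array 3 and LacZ dsRNA array 1, the arrays with the fewest measured probe sets. Most points lie below the line, and of the NELF dsRNA points the triangle is the highest in 7 of the 8 genes with 3 values.

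The comparison with untreated cells shares its NELF dsRNA arrays with the one above, so it is given beside it and not as a repeat. Against untreated cells 9 of 29 tested GST genes passed, 6 higher and 3 lower, where 6.16% of all 12973 tested probe sets passed (2.63% higher and 3.53% lower). Of the 21 above the limit 42.9% passed, against 10.3% of all tested probe sets above it (4.39% higher and 5.95% lower). Without NELF dsRNA array 3 and LacZ dsRNA array 1 together 5 GST genes were lower, and without the variance trend there was 1. These 9 were the genes called against LacZ dsRNA apart from GstT4. Of the 21 genes above the limit, 12 had NELF dsRNA arrays that did not overlap the LacZ dsRNA arrays and 13 had ones that did not overlap the untreated arrays, or 57.1% and 61.9%. Over all probe sets with a mean above the limit those shares were 25.7% and 34.2%.

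Adding dsRNA as such did not yield a call in the family. In LacZ dsRNA against untreated cells 0 of 30 tested GST genes passed limma at the adjusted threshold. An unadjusted limma p under 0.05 was found for 4 of the 30 and for 1355 of all 12974 tested probe sets. Of all 12974 tested probe sets 0.0540% passed (0.0462% higher and 0.00771% lower), and of those with a mean above the limit 0.0920% (0.0789% higher and 0.0131% lower). Of the 21 GST genes 23.8% had LacZ dsRNA arrays that did not overlap the untreated ones, against 20.5% of all probe sets above the limit. The 21 genes above the limit changed by between -0.30 (GstO1) and 0.27 (GstD5), and their 95% intervals together spanned -0.71 to 0.60. The smallest adjusted p in the family was 0.246, for GstO1.

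Neighbouring GST genes differed in their response. In the RefSeq order of genes all 11 D-class members lie in 1 run, in which at most 2 other protein-coding genes separate neighbours, in the order GstD10, GstD9, GstD1, GstD2, GstD3, GstD4, GstD5, GstD6, GstD7, GstD8 and GstD11. The risers GstD1 and GstD5 thus alternate with GstD9 and GstD3, which did not pass, and with genes not above the detection limit in every group. A run of 10 E-class genes has the order GstE10, GstE1, GstE2, GstE3, GstE4, GstE5, GstE6, GstE7, GstE8 and GstE9, and there GstE2 fell, GstE6 rose and GstE3, GstE7 and GstE9 did not pass. GstE11, GstE12 and GstE13, all called, lie outside that run. Gene models overlap for GstE10 and GstE1, and of the called genes GstE12 overlaps CG3894 and GstE13 overlaps CG18659.

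**Figure D4:**
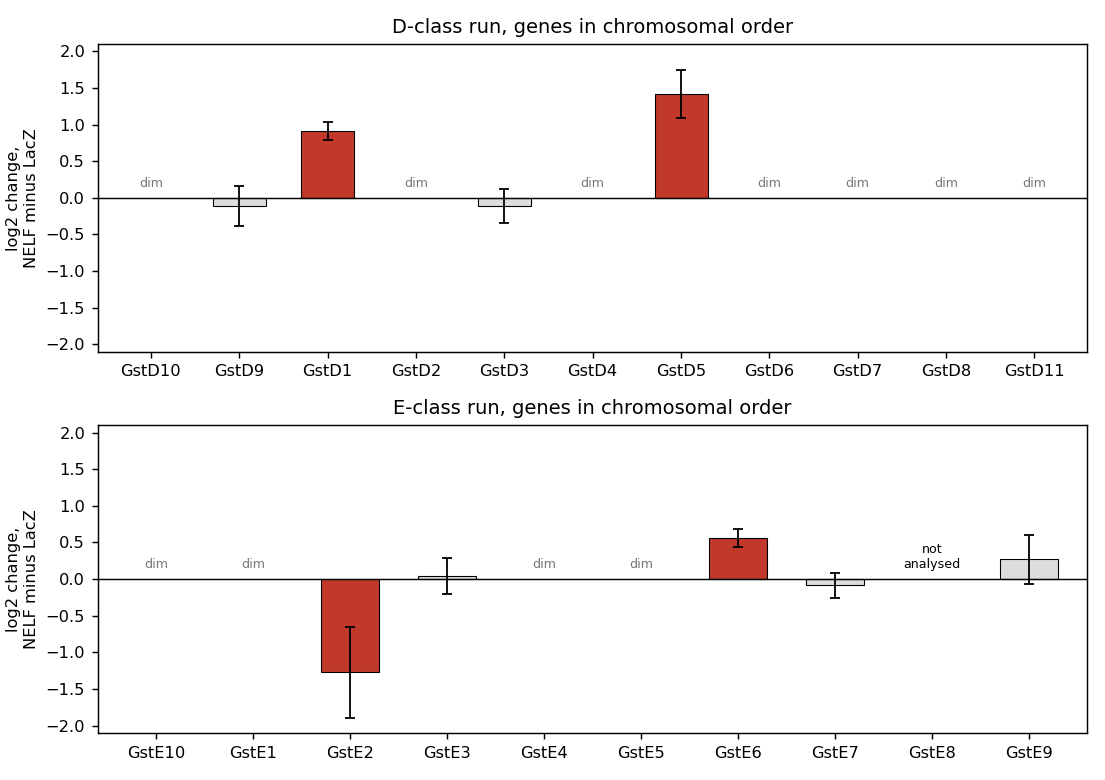
Log2 change in NELF dsRNA minus LacZ dsRNA along the runs of D-class and E-class genes, each bar 1 gene in chromosomal order (not to scale), with 95% intervals not adjusted for the number of genes. Red bars passed after adjustment, grey bars did not, genes marked dim were not above the detection limit in every group, and GstE8 was not analysed here. In the D run the red bars of GstD1 and GstD5 stand between grey bars and dim genes, and in the E run GstE2 points down and GstE6 up.

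The difference between neighbours was also compared on the same arrays, for pairs set after seeing the data. There were 10 pairs of genes above the limit in every group that follow each other in a run. Genes not above the limit in every group, GstE8 and se were passed over. The log2 difference between the 2 genes on each array was compared between the 3 NELF dsRNA arrays and the 6 control arrays. This was done by a two-sided exact permutation test, whose smallest p is 0.0238, adjusted over the 10 pairs. The difference changed in 7 pairs, each at that smallest p, with an exact adjusted p of 0.034. In these pairs the 3 NELF dsRNA arrays did not overlap the 6 control arrays. How often other pairs of genes on the arrays reach this was not counted. It moved by 1.07 between GstD1 and GstD3 (3.23 ± 0.04 after NELF dsRNA, n = 3, and 2.16 ± 0.16 in the controls, n = 6, both SD, exact test) and by -1.68 between GstD3 and GstD5. It moved by -1.16 between GstD9 and GstD1. In the E run it moved by -1.36 between GstE2 and GstE3, by -0.56 between GstE3 and GstE6 and by 0.60 between GstE6 and GstE7. Among the omega genes it moved by -0.83 between GstO3 and GstO2. It did not pass between GstT1 and GstT2 (0.38, exact adjusted p = 0.060), GstE7 and GstE9 (-0.32, exact adjusted p = 0.13) or GstO2 and GstO1 (-0.17, exact adjusted p = 0.17). These pairs share genes and arrays, so they are not independent. Each of the 7 joins a gene called above to one that was not called. The comparison therefore restates those calls and is no separate support for them. The pairs did not keep their call when some single arrays were left out.

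Of 12 listed genes of glutathione supply and recycling 6 were tested and 2 rose against LacZ dsRNA, where 1.85% of all tested probe sets were higher. Of the listed genes 5 lay above the limit in every group, and 3.11% of all tested probe sets with a mean above it were higher. The median log2 change of the 6 was 0.16, against 0.01 over all tested probe sets. Gclc, the catalytic subunit of glutamate-cysteine ligase, which sets the rate of glutathione synthesis, read 8.76, 8.86 and 8.88 after NELF dsRNA, against 8.41, 8.39 and 8.52 after LacZ dsRNA and 8.12, 8.30 and 8.36 in untreated cells. It rose by 0.39 (SE 0.08, limma adjusted p = 0.0121) against LacZ dsRNA and by 0.58 (limma adjusted p = 0.000435) against untreated cells. Without NELF dsRNA array 2, NELF dsRNA array 3 or LacZ dsRNA array 2 the first of these no longer passed, and adjusted p reached 0.109 over all alternatives. Trx-2, a thioredoxin, rose by 0.21 (SE 0.06, limma adjusted p = 0.0489) against LacZ dsRNA, a call lost under 13 of 17 alternatives, those without any single array except LacZ dsRNA array 1 included, and by 0.26 against untreated cells (limma adjusted p = 0.012), a call lost without NELF dsRNA array 2 or untreated array 3. Gclm, the modifier subunit of the ligase, had a log2 change of 0.00 (SE 0.10) and did not pass.

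Of 12 listed peroxide and other glutathione-using enzymes 9 were tested against LacZ dsRNA. The median log2 change of the 9 was 0.12, against 0.01 over all tested probe sets. Of the listed genes 7 lay above the limit in every group. In this comparison 1 gene rose, where 1.85% of all tested probe sets and 3.11% of those with a mean above the limit were higher. That was PHGPx, a glutathione peroxidase homologue named for its action on phospholipid hydroperoxides, with 11.64, 11.79 and 11.74 after NELF dsRNA, against 11.40, 11.41 and 11.35 after LacZ dsRNA and 11.48, 11.55 and 11.45 in untreated cells (log2 change 0.34, SE 0.06, limma adjusted p = 0.00194). The call of PHGPx against LacZ dsRNA was lost without the variance trend (adjusted p = 0.0912). Its rise of 0.23 against untreated cells (limma adjusted p = 0.0259) was lost under 5 of 17 alternatives, those without NELF dsRNA array 2, NELF dsRNA array 3, untreated array 1 or untreated array 3 included. The peroxiredoxin gene Prx6c passed against untreated cells (limma adjusted p = 0.00195), where its mean of 2.90 lay below the detection limit, and had a log2 change of 1.61 (SE 0.50) against LacZ dsRNA that did not pass (limma adjusted p = 0.0923) but did without untreated array 2 or array 3, or in a fit of those 6 arrays alone. The omega gene se was below the detection limit on every array. The microsomal transferase gene Mgstl had a log2 change of 0.12 (SE 0.20).

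The genes of the CncC switch were all above the limit, and 1 of 4 rose against LacZ dsRNA, where 3.11% of all tested probe sets above the limit were higher. Their median log2 change was -0.03, against 0.00 over those probe sets. ref(2)P, the fly p62 that carries proteins to autophagy, read 9.55, 9.57 and 9.52 after NELF dsRNA, against 9.02, 8.88 and 9.42 after LacZ dsRNA and 9.18, 9.08 and 9.17 in untreated cells (log2 change 0.43, SE 0.11, limma adjusted p = 0.0285). This call was lost under 8 of 17 alternatives, those without LacZ dsRNA array 1, LacZ dsRNA array 2 or any single NELF dsRNA array included. The transcription factor gene cnc had a log2 change of -0.06 (SE 0.09), its partner maf-S 0.00 (SE 0.07) and the inhibitor gene Keap1 -0.47 (SE 0.27), and none of these passed. Of the 4 listed export pumps MRP alone could be tested, with a log2 change of 0.05 (SE 0.08) that did not pass. No gene of these lists passed in LacZ dsRNA against untreated cells.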

How the data were processed

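From 1 µg of total RNA, biotinylated cRNA was made, and 10 µg of it was hybridized for 16 h to Affymetrix Drosophila Genome 2.0 arrays, per the labels' protocols. The authors deposited 1 log2 signal for each array and probe set, and 21.2% of cells are empty. The base 2 is inferred from the values. How probes were summarized and arrays normalized is not given in the sources used here. Over the 9266 probe sets with 9 values the array medians differed by at most 0.025, so no normalization was added. Probe sets were named by the platform annotation (13086 with 1 gene, 389 with several, 4424 unnamed), and 2 GST genes, GstE9 and GstO2, had 2 probe sets, of which the brighter stood for the gene. The annotation does not show whether GST probe sets cross-hybridize with paralogs, and this was not tested. The order of genes and the overlaps of gene models rest on positions in the RefSeq gene table, and no coordinates are given.

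Groups were compared with limma 3.58.1 (R 4.3.3) over all 9 arrays, with a mean-variance trend, for probe sets with at least 2 values in each group compared, empty cells being dropped. Values of p were adjusted by Benjamini-Hochberg over all probe sets tested (threshold 0.05). The script was tested on simulated data. GST genes past the threshold in any comparison, or above the detection limit in every group, are given with all 9 values. Listed genes past it in either comparison with LacZ dsRNA are named, and Gclm, Prx6c, se, Mgstl, cnc, maf-S, Keap1 and MRP were named after their values were seen. The neighbour pairs were set after seeing the data. Members and lists were chosen with earlier results of these data known. The number of arrays limits the precision.

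Alternatives were no variance trend, a floor at the 10th percentile, quantile normalization, probe sets with 9 values or a mean above the detection limit, the mean over probe sets, the 6 arrays compared, the replicate number as a block, all 6 controls pooled, each array left out and, added after seeing the data, 2 arrays left out.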

Additional observations from a re-analysis of the deposited data

How the results depend on the processing

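GstD1, GstD5, GstE6, GstE11 and GstO3 kept their call and direction under all 19 alternatives against LacZ dsRNA and all 18 against untreated cells. The other calls, of GstT1, GstT4, GstE2, GstE12 and GstE13, were each lost under at least 1 of the 19 against LacZ dsRNA. Without the variance trend 5 GST genes passed against LacZ dsRNA (4 higher, 1 lower) and 6 against untreated cells (1 lower), and over all probe sets 228, 356 and 1 passed (the last in LacZ dsRNA against untreated cells). The cause was not tested. Leaving out 1 array gave 6 to 10 GST genes against LacZ dsRNA, 8 to 10 against untreated cells and 0 in LacZ dsRNA against untreated cells, and 426 to 697, 534 to 996 and 2 to 18 of all probe sets. In LacZ dsRNA against untreated cells 12 probe sets passed among those above the detection limit, where fewer were tested, and 22 without NELF dsRNA array 3 and LacZ dsRNA array 1, where 5 GST genes were lower against untreated cells. No GST gene that passed changed sign, and of all 1526 single values recomputed for GST genes 45 did, none of which passed under either setting. In the neighbour pairs 2 NELF dsRNA arrays against 6 cannot pass after adjustment. Leaving out 1 control array also raises the smallest p that the exact test can give. No pair passed without LacZ dsRNA array 1, LacZ dsRNA array 2, untreated array 1 or untreated array 3. Without LacZ dsRNA array 3 or untreated array 2 the pairs called over all arrays still passed.

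The replicate number does not mark a shared batch in the labels, and the correlation of deviations between same-numbered NELF dsRNA and LacZ dsRNA arrays ran from -0.11 to 0.10, so the numbers were not taken as pairs. Between differently numbered arrays of these groups it ran from -0.15 (NELF dsRNA array 3 and LacZ dsRNA array 2) to 0.19. The latter was for NELF dsRNA array 3 and LacZ dsRNA array 1, the arrays with the fewest measured probe sets. A technical factor shared by these 2 arrays was not tested. With the replicate block 9 GST genes passed against LacZ dsRNA and 8 against untreated cells, GstE13 being lost in both, and 531 and 724 of all probe sets passed.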
